A study of Mus musculus with 92 samples.

Results

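The 10 genes described here make class I major histocompatibility complex (MHC) molecules and supply them with peptide: H2-K1, H2-D1, B2m, Tap1, Tap2, Tapbp, Psmb8, Psmb9, Psmb10 and Nlrc5. They were chosen by exact gene name in a table of normalized values, and all 10 were found among its 29956 named genes. All 10 also passed the filter on low values in each of the 6 fits, so none is missing from any comparison.

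A class I molecule is a heavy chain, encoded by genes such as H2-K1 and H2-D1, bound to beta-2 microglobulin (B2m), and it shows peptides from inside the cell to CD8+ T cells. The catalytic subunits Psmb8, Psmb9 and Psmb10 turn the constitutive proteasome into the immunoproteasome, Tap1 and Tap2 carry peptides into the endoplasmic reticulum, tapasin (Tapbp) holds the empty class I molecule at that transporter, and Nlrc5 activates class I promoters. Interferons raise many of these genes through JAK kinases, and resting microglia are known for low class I levels.

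The study asked whether macrophages from conditionally immortalized progenitors can replace microglia, and what loss of Adar1, an RNA editing gene mutated in Aicardi-Goutières syndrome, does in such cells. Bulk RNA was sequenced from 92 mouse libraries in 25 groups, made with a low-input kit. BM progenitors and BM monocytes (3 libraries each) came from the marrow of wild-type FVB mice, and BMD macrophages (3) were such marrow cells grown for 7 days with M-CSF. ER-Hoxb8 progenitors (3) are marrow progenitors of an FVB line heterozygous for Cas9, kept dividing by an estrogen-dependent Hoxb8 in beta-estradiol and GM-CSF. Without estradiol and with M-CSF they gave ER-Hoxb8 day 4 cells (3, after 4 days) and ER-Hoxb8 macrophages (3, after 7 days). Microglia-like cells (MLCs) are donor cells that were injected into the brains of newborn Csf1r-/- hosts, which lack microglia of their own, and were later sorted as CD45+ CD11b+ cells: BMD MLCs (6) from marrow donors and ER-Hoxb8 MLCs (6), which the labels give as wild type. Library names split the latter into replicates 1 to 3 (GFPHox) and 4 to 6 (WTHox). Microglia (9) were sorted from uninjected wild-type FVB brains. Guides were delivered by retrovirus to Cas9 heterozygous ER-Hoxb8 cells: a nontargeting control (NTC) or an Adar1 guide, sgRNA 1 or sgRNA 2, and the edited cells are called Adar1 KO here as in the labels. Progenitors and 7-day macrophages were taken for each guide (3 libraries a group, 5 for sgRNA 2 macrophages). In a further experiment NTC and Adar1 KO (sgRNA 1) macrophages received baricitinib, an inhibitor of JAK kinases, at every change of medium. The sample labels give 0, 0.0006, 0.016, 0.4 and 10 uM (NTC with 3, 3, 4, 4 and 3 libraries, KO with 3, 3, 3, 3 and 4), while the treatment text lists 0.00064 and 0.16 uM in place of 0.0006 and 0.016. The sample labels are used here. The labels do not say whether replicates of an edited group are separate edits.

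Values are log2 CPM, counts scaled to a library of 1 M (mega) reads and normalized by the authors, and the depth of each library was not analysed here. The lowest value a library can hold differs between 6 sets of libraries that were normalized apart, and tests were made only within a set. From that lowest value, and assuming a prior count of 2, the mean depth of a set can be estimated. It was 40.6 M reads for the 12 libraries of BM progenitors, BM monocytes, ER-Hoxb8 progenitors and day 4 cells, and 24.5 M for the 27 libraries of BMD and ER-Hoxb8 macrophages, both kinds of MLCs and microglia. The 11 libraries of NTC and sgRNA 1 cells gave 21.5 M, and NTC macrophages replicate 2, a set of its own, 17.1 M. For the 8 sgRNA 2 libraries the estimate was 23.6 M and for the 33 baricitinib libraries 13.7 M. In consequence NTC macrophages replicate 2 takes part in no test but 1 named alternative, and sgRNA 2 cells are compared only with each other. A gene passed a test at an adjusted p below 0.05 (limma, adjusted over all genes tested), and "rose" or "fell" is used of those alone.

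Because the members move together in several comparisons, the bases upstream of their starts were searched on both strands for motifs, among them an interferon response element core (GAANNGAAA) and an NF-kB site (GGGNNTTCC). RefSeq promoters on build GRCm38.p6 were at hand for 8 of the 10 members, not for Tap2 and Nlrc5. The authors' values rest on build GRCm39, so these coordinates belong to the sequences alone. In windows of 300 bases around the start the interferon core is held by 7.56% of 27025 promoters and by 2 members, H2-K1 and H2-D1. The NF-kB letters occur in 5.72% of promoters and in the same 2 members. A further pattern of the search (TTCNNNGAA) occurs in 8.47% of promoters and in 1 member, Psmb8. A longer form of the interferon element (GAAA, any 2 bases, GAAA), added after the first search, occurs in 3.49% of promoters and in 1 member, B2m. The 250 bases upstream of the 3 genes with an interferon match are printed 5' to 3' on the strand of the gene: H2-K1 at chr17:34000348-34000597 (minus), H2-D1 at chr17:35262844-35263093 (plus) and B2m at chr2:122147437-122147686 (plus). Capitals mark the matches: in H2-K1 and H2-D1 the first run is the NF-kB match and the second the interferon core read on the other strand, and in B2m the run is the longer form.
H2-K1: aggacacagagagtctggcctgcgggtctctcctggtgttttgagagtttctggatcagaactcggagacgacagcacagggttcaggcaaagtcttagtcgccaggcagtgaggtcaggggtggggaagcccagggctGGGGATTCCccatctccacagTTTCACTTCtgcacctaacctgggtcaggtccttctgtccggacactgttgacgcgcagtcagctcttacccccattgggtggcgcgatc
H2-D1: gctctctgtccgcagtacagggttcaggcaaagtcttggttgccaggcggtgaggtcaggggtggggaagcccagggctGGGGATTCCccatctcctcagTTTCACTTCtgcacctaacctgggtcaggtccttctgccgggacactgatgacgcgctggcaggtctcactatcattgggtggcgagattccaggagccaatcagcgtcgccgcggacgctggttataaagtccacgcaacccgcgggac
B2m: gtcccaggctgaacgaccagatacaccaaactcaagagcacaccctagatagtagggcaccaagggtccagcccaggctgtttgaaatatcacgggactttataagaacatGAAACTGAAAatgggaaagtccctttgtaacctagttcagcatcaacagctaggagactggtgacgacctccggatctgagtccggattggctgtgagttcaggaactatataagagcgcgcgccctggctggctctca
A match describes letters in the sequence and shows no binding. The windows of Tap1 and Psmb9 overlap on opposite strands of chromosome 17, since the genes start back to back.

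Adar, the gene the guides target, was read first in every sample, in log2 CPM. sgRNA 1 macrophages held 6.96, 7.15 and 7.01, and NTC macrophages 5.73 and 5.67, with 5.86 in replicate 2 of the other set. All 3 edited libraries were above all NTC libraries, so the mRNA was higher and not lower in cells labelled Adar1 KO (log2 fold change 1.34, SE 0.21, adjusted p 0.000976). Progenitors overlapped, at 4.36, 4.23 and 4.24 with sgRNA 1 and 4.20, 3.42 and 4.28 with NTC (log2 fold change 0.31, SE 0.19, adjusted p 0.927). sgRNA 2 cells held 4.35, 4.56 and 4.36 as progenitors and 7.02, 7.00, 7.02, 7.03 and 6.99 as macrophages. The macrophages were the higher stage with each of the 3 guides. In the baricitinib experiment KO macrophages without drug read 7.42, 6.52 and 6.37, and NTC 5.12, 4.94 and 4.69. No KO value fell among the NTC values there (log2 fold change 1.85, SE 0.48, adjusted p 0.00513). At 0.0006, 0.016 and 0.4 uM the KO values were 5.90, 5.94 and 6.21, then 6.25, 5.90 and 6.37, then 4.12, 7.38 and 4.21. At the same doses the NTC values were 4.66, 5.04 and 4.81, then 4.31, 4.58, 4.40 and 4.34, then 4.50, 4.22, 4.29 and 3.92. Only at 0.4 uM did the KO group split, with replicate 2 high and the other 2 among the NTC values. At 10 uM the KO values were 1.55, 2.15, 2.91 and 2.03 and the NTC values 3.70, 3.64 and 3.22, with all 4 KO libraries below all NTC libraries (log2 fold change -1.36, SE 0.45, adjusted p 0.0148). The mRNA level of a gene edited by a guide does not check the edit.

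Among cells that carry no guide, Adar read 5.36, 5.11 and 5.63 in BM progenitors, 6.32, 6.21 and 5.56 in BM monocytes and 5.72, 5.56 and 6.29 in BMD macrophages. The ER-Hoxb8 series read 4.69, 5.81 and 5.10 in progenitors, 5.69, 5.56 and 5.28 at day 4 and 5.83, 5.97 and 4.37 in macrophages. Cells from brain ran from 3.24 to 5.74 with a median of 4.73 in BMD MLCs, from 4.11 to 6.08 with a median of 5.19 in ER-Hoxb8 MLCs and from 0.87 to 5.63 with a median of 3.43 in microglia. The lowest of all was microglia replicate 8, at 0.87.

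Some libraries stand apart from their group or go against their label. Across 8964 genes, which are not independent replicates, ER-Hoxb8 progenitors replicate 2 had r = 0.987 with day 4 replicate 2, against 0.811 and 0.696 with the other progenitors. Its markers were those of day 4 cells. Lyz2, lysozyme of myeloid cells, read 13.77, 15.74 and 7.56 in the 3 progenitor libraries and 15.75, 15.80 and 15.24 at day 4. Kit, a receptor of progenitors, read 5.03, -0.76 and 1.67 in progenitors and 4.30, -1.15 and -1.80 at day 4. Replicate 1 was also high in Lyz2, and only replicate 3 was low. KO replicate 2 at 0.4 uM differed from replicates 1 and 3 of that group: Irf1, a transcription factor induced by interferon, read 4.22, 7.69 and 4.43. ER-Hoxb8 MLCs replicate 6 had Csf1r 6.08 and P2ry12 4.76, with the monocyte markers Ly6c2 at 11.12 and Ccr2 at 11.78. BMD macrophages replicate 3 had monocyte markers of 1133 CPM, against 56.3 and 38.8 in replicates 1 and 2. Its F13a1, a monocyte marker, read 10.14 against 5.63 and 5.11. Its library name, wBM_1, is of another pattern than Mac1 and Mac3. Whether any of these libraries was swapped or treated otherwise was not tested. KO replicate 2 at 0.4 uM also enters the variance of every baricitinib test. Left out of the fit, an alternative chosen after seeing the values, it gave 8 members past the threshold instead of 6 in KO over NTC without drug, where 14.4% of all genes rose, and 8 instead of 4 at 10 uM, where 24% rose and 25.8% fell. Without ER-Hoxb8 progenitors replicate 2 in its fit the count in BM monocytes was 1, the same as with it (6.96% of all genes rose with it). Without MLCs replicate 6 no call on a member changed over ER-Hoxb8 macrophages or in the engraftment interaction. Over BMD MLCs only H2-D1 lost its call without it (adjusted p 0.0711).

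The labels were held against defining markers. Sall1, a transcription factor of microglia, ran from 8.31 to 8.91 with a median of 8.60 in microglia, from -1.26 to 0.79 with a median of -0.07 in BMD MLCs and from -0.38 to 2.66 with a median of 0.79 in ER-Hoxb8 MLCs. Engrafted cells thus lay far below microglia with no overlap. P2ry12, a purinergic receptor of microglia, ran from 14.03 to 14.84 with a median of 14.41 in microglia, from 8.11 to 11.39 with a median of 10.72 in BMD MLCs and from 4.76 to 10.57 with a median of 7.19 in ER-Hoxb8 MLCs, again without overlap between microglia and the others. Macrophage markers summed to 3027 to 23377 (median 8850.1, Csf1r the most abundant) in microglia, 13497 to 18964 (median 14358, Lyz2 the most abundant) in BMD MLCs and 6446 to 28362 (median 8801, Lyz2 the most abundant) in ER-Hoxb8 MLCs.

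GC-rich genes read low in some libraries. The GC index is the median deviation from the set mean (log2) of the GC-richest of 4 equal bins of well-expressed genes minus that of the GC-poorest bin. It was below -0.5 in BMD MLCs replicate 3 (-0.61), ER-Hoxb8 MLCs replicates 4 (-0.77) and 5 (-0.64) and microglia replicates 4 (-1.0), 5 (-0.93) and 8 (-1.80). Microglia replicate 8 also had 4.32% mitochondrial RNA (0.597 to 1.26% in the other 8), neuron markers of 145 CPM (1.16 to 8.89), oligodendrocyte markers of 677 (28.2 to 82.9) and astrocyte markers of 517 (170 to 353). Mitochondrial RNA was 1.44 to 2.45% in ER-Hoxb8 MLCs 1 to 5, above the other microglia, 0.691% in replicate 6 and 0.791 to 1.4% in BMD MLCs, and its part was not tested. All 4 KO libraries at 10 uM were low too in the GC index, at -1.19, -1.10, -0.56 and -0.78. In vitro macrophages of the set with brain cells ran 0.54 to 0.92. The members are mostly GC-rich: B2m stands at percentile 14.3 of transcript GC and Nlrc5 at 67.0, and the other 8 lie between 79.1 and 87.6. So tests of the members that use these libraries were also run on values adjusted for GC content or without the low libraries. These alternatives were chosen after seeing the data, and calls that changed are given. Tests of other genes that use these libraries are given unadjusted only. A length index was made like the GC index, from transcript length. It was 0.09 to 0.61 in BMD MLCs and -0.04, -0.04, -0.48, 0.18, -0.27 and -0.53 in ER-Hoxb8 MLCs 1 to 6. Microglia ran from -0.60 to 0.49. KO cells at 10 uM read -0.35, -0.26, -0.09 and -0.18, and 0.15, 0.06 and -0.06 without drug. Member transcripts run from 860 bases (B2m) to 7578 (Nlrc5). The part of length in the results was not tested.

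**Figure D1:**
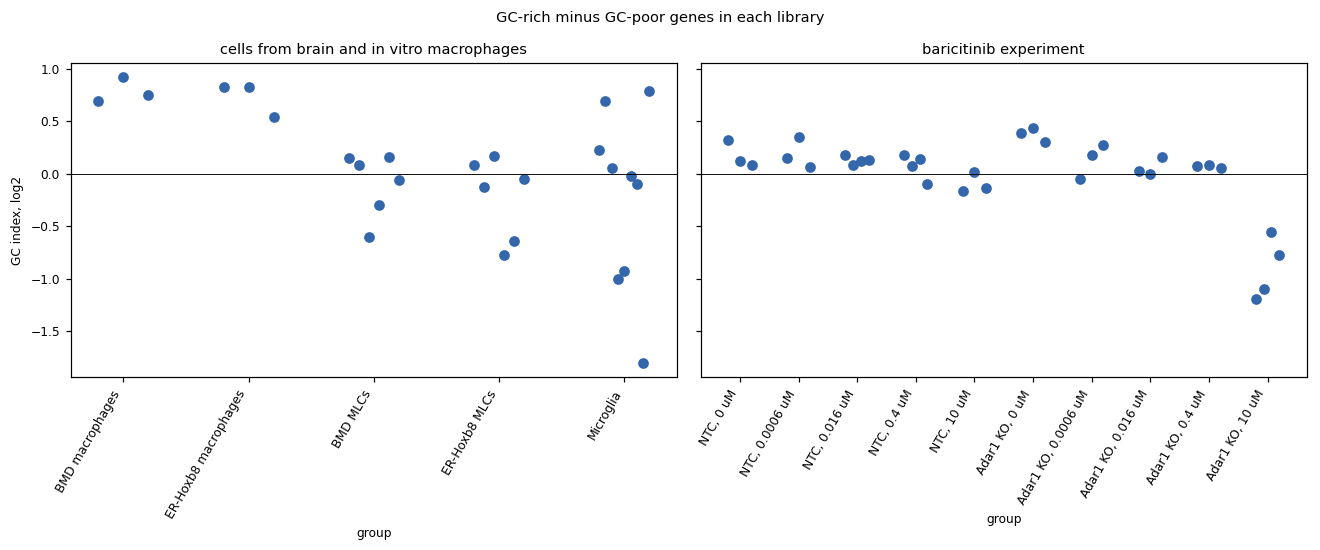
GC index of each library (y axis, log2; 0 is the mean of its set) for the set with brain cells and the baricitinib set, 1 point per library, with a line at 0. The 4 KO libraries at 10 uM and 3 of the 9 microglia libraries lie below -0.5.

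The first comparison asks what Adar1 guides do in macrophages without drug. In sgRNA 1 macrophages 9 of the 10 members rose over NTC macrophages and 0 fell, where 14.4% of all genes tested rose. The exception is Nlrc5. The members' median log2 fold change was 1.61 against 0.05 over all genes. Fewer cells of a type and less RNA per cell cannot be told apart in bulk samples. The GC index of these libraries was not below the limit. Sums of marker lists differed in these cultures, all grown from ER-Hoxb8 lines, and are given in CPM against the 2 NTC libraries. Endothelial genes were 141, 101 and 104 against 37.2 and 48.2, and neutrophil genes 68.5, 81.9 and 80.3 against 15.2 and 10.8. Progenitor markers were 9.54, 2.99 and 3.65 against 1.66 and 1.37, and monocyte markers 1419, 1036 and 617 against 1854 and 1487. Oligodendrocyte markers were 28.0, 32.4 and 34.6 against 65.1 and 63.0, and astrocyte markers 71.9, 74.6 and 73.9 against 43.3 and 40.8. Microglia markers were 588, 586 and 609 against 255 and 418. Macrophage markers overlapped. The part of these markers in the results was not tested.

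The heavy chains and their partner carried high levels at this stage. H2-K1, a classical heavy chain, read 11.42, 11.15 and 10.89 log2 CPM in sgRNA 1 macrophages and 9.31 and 9.59 in the 2 NTC macrophage libraries of the set. Every edited library exceeded both NTC libraries (log2 fold change 1.70, SE 0.15, adjusted p 9.55e-06). H2-D1, the other classical heavy chain, read 12.95, 13.71 and 13.22 against 10.32 and 12.48. The groups did not touch, though the NTC libraries lay far apart (log2 fold change 1.89, SE 0.47, adjusted p 0.0149). H2-D1 lost its call without sgRNA 1 macrophages replicate 2 or NTC macrophages replicate 1 (adjusted p 0.0535 and 0.0997, range 4.85e-05 to 0.0997 over the 5 fits that each leave out 1 library, log2 fold change 1.89 with all libraries, 0.81 without NTC macrophages replicate 1). B2m, the light chain, read 13.43, 13.05 and 12.63 against 11.56 and 11.32, again without overlap (log2 fold change 1.60, SE 0.20, adjusted p 0.000156). Under other alternatives (each range is over all of them, and "only the groups compared" is a fit of those libraries alone) H2-D1 lost its call with only the groups compared and quantile normalization (adjusted p 0.0785 and 0.0535, range 0.00246 to 0.0785).

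Transport and loading genes moved by unequal amounts. Tap1, the first chain of the peptide transporter, read 6.81, 6.75 and 6.28 against 4.12 and 4.66. That is a clear gap, with no edited library near the NTC pair (log2 fold change 2.22, SE 0.22, adjusted p 3.01e-05). Tap2, the second chain, read 7.51, 7.69 and 7.47 against 6.73 and 6.81, a smaller step (log2 fold change 0.78, SE 0.16, adjusted p 0.00474). Tapbp read 7.78, 7.00 and 6.86 against 6.55 and 6.48. Its groups were apart, with sgRNA 1 replicate 1 the highest (log2 fold change 0.70, SE 0.22, adjusted p 0.0402). Tapbp lost its call without NTC macrophages replicates 1 or 3 (adjusted p 0.127 and 0.140, range 0.0165 to 0.140 over 5 such fits). Its call was also lost with values adjusted for GC content (Tapbp 0.78, adjusted p 0.0537, range 0.0103 to 0.126 over alternatives). Besides, Tapbp lost its call with eBayes without trend, no filter on low values, only the groups compared and quantile normalization (adjusted p 0.0663, 0.0833, 0.126 and 0.0659, range 0.0103 to 0.126).

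The immunoproteasome subunits rose together. Psmb8, which takes the place of Psmb5, read 8.99, 8.57 and 8.20 against 6.89 and 6.83 (log2 fold change 1.73, SE 0.20, adjusted p 7.77e-05). Psmb9, which replaces Psmb6, read 6.66, 6.49 and 6.00 against 4.79 and 4.71 (log2 fold change 1.63, SE 0.20, adjusted p 0.000167). Psmb10, which replaces Psmb7, read 7.22, 6.60 and 6.37 against 5.82 and 5.57 (log2 fold change 1.03, SE 0.21, adjusted p 0.00468). In each of the 3 genes all edited libraries were above both NTC libraries. The constitutive partners had log2 fold changes of 0.40 (Psmb5, adjusted p 0.0747), 0.64 (Psmb6, 0.0184) and 0.51 (Psmb7, 0.0108). Nlrc5, the class I transactivator, was read at low levels, 2.81, 1.17 and 1.49 against -0.02 and 1.27. Those values overlap, and the difference did not pass (log2 fold change 1.20, SE 0.68, adjusted p 0.233).

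In progenitors the same guide left 0 of 10 members past the threshold by limma, with 3 at an unadjusted p under 0.05, where 0.917% of all genes passed. The members' median was -0.34 against -0.01. H2-K1 read 6.25, 6.36 and 6.19 against 6.78, 6.80 and 6.90, and Psmb8 6.08, 6.19 and 5.91 against 6.96, 7.02 and 6.67. Both genes were apart between the groups, and neither passed (log2 fold change -0.56, SE 0.13, adjusted p 0.103 for H2-K1 and log2 fold change -0.82, SE 0.18, adjusted p 0.0634 for Psmb8). Psmb8 passed with the replicate block (adjusted p 0.0286), and its adjusted p ran from 0.0221 to 0.127 over its alternatives. The difference between the stages was tested directly. The guide effect was larger in macrophages for 8 of 10 members, all but Tapbp and Nlrc5, where 9.84% of all genes had such a positive interaction. Tap1 had the interaction 2.61 (SE 0.30, adjusted p 0.000157) and Psmb8 2.55 (SE 0.26, adjusted p 7.78e-05). Psmb10 lost its call without sgRNA 1 progenitors replicate 3, NTC macrophages replicate 3 or NTC progenitors replicate 2 (adjusted p 0.0639, 0.0769 and 0.0553, range 0.00853 to 0.0769 over 11 such fits). The median interaction of the members was 1.96 against 0.08 over all genes. In progenitors Psmb8 fell with only the groups compared and quantile normalization (adjusted p 0.0253 and 0.0221, range 0.0221 to 0.127). For the interaction Psmb10 lost its call with no filter on low values (adjusted p 0.0549, range 0.00954 to 0.0549).

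Part of the members also differed between progenitors and macrophages, stages that differ in medium as well. From NTC progenitors to NTC macrophages 5 of 10 rose (H2-K1, H2-D1, B2m, Tapbp and Nlrc5), where 33.0% of all genes rose. Library names of the progenitors begin with NTC2Prog, and the tested macrophage libraries are NTC-1 and NTC-3. Replicate 2, left out, is NTC2-2-Redo. The labels do not say whether both stages are of the same control line, which also bears on the interaction of guide and stage. H2-K1 went from 6.78, 6.80 and 6.90 to 9.31 and 9.59 (log2 fold change 2.62, SE 0.15, adjusted p 2.54e-08). B2m went from 9.03, 9.22 and 8.88 to 11.56 and 11.32 (log2 fold change 2.40, SE 0.20, adjusted p 6.74e-07). The stages were far apart in both genes. Nlrc5 lost its call without NTC macrophages replicate 3 or NTC progenitors replicates 2 or 3 (adjusted p 0.273, 0.0796 and 0.110, range 0.0278 to 0.273 over 5 such fits, log2 fold change 1.73 with all libraries, 1.09 without NTC macrophages replicate 3). Tap1 rose without NTC macrophages replicate 1 (adjusted p 0.0252, range 0.0252 to 0.498 over 5 such fits, log2 fold change 0.48 with all libraries, 0.75 without it). Tap2 fell without NTC progenitors replicate 2 (adjusted p 0.0107, range 0.0107 to 0.647 over 5 such fits, log2 fold change -0.21 with all libraries, -0.39 without it). With NTC macrophages replicate 2 added from its other set, Psmb10 fell and Tap1 rose (Psmb10 -0.52, adjusted p 0.0201, range 0.0201 to 0.0993 over alternatives; Tap1 0.56, adjusted p 0.0216, range 0.0216 to 0.177 over alternatives). With sgRNA 1, all 10 rose from progenitors to macrophages, where 34.1% of all genes rose, and the median was 2.81 against -0.06. With sgRNA 2, all 10 rose as well, where 39.6% of all genes rose. Tap1 in the 5 sgRNA 2 macrophage libraries read 6.99, 7.21, 7.12, 7.17 and 7.24, against 4.47, 4.36 and 4.35 in progenitors (log2 fold change 2.75, SE 0.06, adjusted p 5.78e-11), and Psmb8 had a log2 fold change of 2.94 (SE 0.06, adjusted p 2.47e-11). No NTC library was normalized with sgRNA 2, so its effect against NTC has no test here. From NTC progenitors to macrophages Tap1 rose with quantile normalization (adjusted p 0.0291, range 0.0216 to 0.177), Psmb10 fell with mean log2 CPM above 2, only the groups compared and replicate block (adjusted p 0.0491, 0.0246 and 0.0255, range 0.0201 to 0.0993) and Nlrc5 lost its call with log2 (CPM + 1), no filter on low values and replicate block (adjusted p 0.0550, 0.0861 and 0.0531, range 0.0235 to 0.0861).

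**Figure D2:**
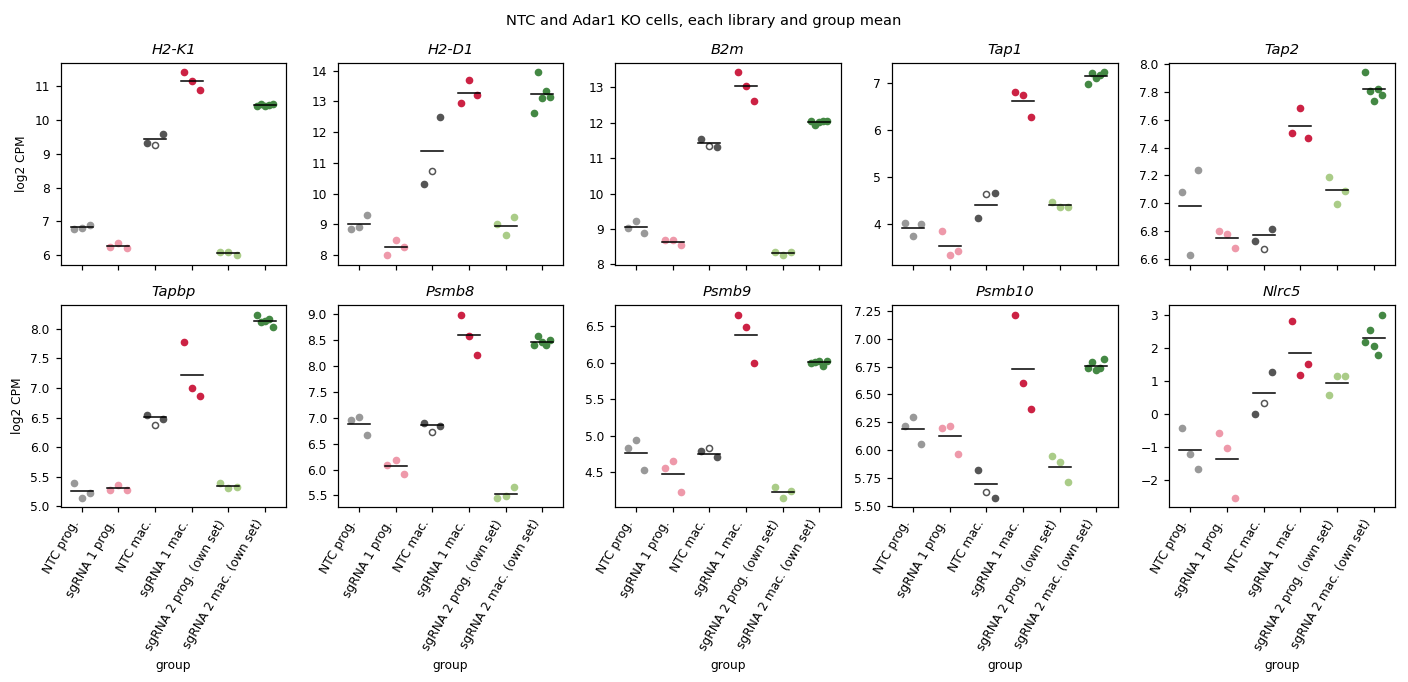
log2 CPM (y axis) of each member in NTC, sgRNA 1 and sgRNA 2 progenitors and macrophages, 1 point per library and a line at the group mean, with the sgRNA 2 libraries in a set of their own and an open circle for NTC macrophages replicate 2, which is normalized apart and left out of its mean. sgRNA 1 macrophages lie above NTC macrophages in all members but Nlrc5.

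The baricitinib experiment repeats the KO comparison without drug and then asks what blocking JAK kinases does. Without drug 6 members rose in KO over NTC macrophages (H2-K1, H2-D1, B2m, Tap1, Tapbp and Psmb10), where 11.4% of all genes rose, and the members' median was 1.19 against -0.03. H2-K1 read 11.02, 10.78 and 10.68 in KO and 8.78, 8.23 and 8.22 in NTC. All KO libraries were above all NTC libraries (log2 fold change 2.42, SE 0.32, adjusted p 1.97e-06). B2m read 13, 12.61 and 12.67 and 10.74, 10.55 and 10.68, equally without overlap (log2 fold change 2.10, SE 0.29, adjusted p 4.83e-06). Tap1 read 6.65, 6.38 and 6.17 and 4.62, 4.44 and 4.78. Its groups were apart (log2 fold change 1.78, SE 0.62, adjusted p 0.0352), yet the call was lost without any 1 of the 6 libraries, with adjusted p of 0.0530 to 0.104. Psmb10 lost its call without KO replicates 2 or 3 or NTC replicate 1 (adjusted p 0.0540, 0.0530 and 0.0601, range 0.0325 to 0.0601 over 6 such fits). Tapbp lost its call without KO replicate 1 or NTC replicate 2 (adjusted p 0.0594 and 0.0589, range 0.0342 to 0.0594 over 6 such fits). H2-D1 lost its call without NTC replicate 2 (adjusted p 0.0931, range 0.00117 to 0.0931 over 6 such fits). The count of members therefore ran from 3 to 5 when 1 library was left out. Among other alternatives without drug, Tap1 lost its call with no filter on low values (adjusted p 0.0651, range 2.57e-07 to 0.0651), Tap2 rose with only the groups compared (adjusted p 0.00176, range 0.00176 to 0.327), Psmb8 rose with KO 0.4 uM replicate 2 out, only the groups compared, quantile normalization and replicate block (adjusted p 1.45e-05, 0.000801, 0.0290 and 0.0446, range 1.45e-05 to 0.1) and Psmb9 rose with KO 0.4 uM replicate 2 out and only the groups compared (adjusted p 5.95e-06 and 0.00124, range 5.95e-06 to 0.186).

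Sums of marker lists differed among these groups as well, all grown from ER-Hoxb8 lines, and their part in the results was not tested. Each is a range of summed CPM in KO at 0, 0.4 and 10 uM and then NTC at 0, 0.4 and 10 uM. Monocyte markers ran 625.4 to 689, 1877 to 2411, 1711 to 2290.1, 1106 to 1396, 1555 to 1795 and 2086 to 2315. Endothelial genes ran 70.5 to 88.3, 68.5 to 237, 31.1 to 39.4, 51.3 to 55.7, 38.6 to 44.5 and 22.4 to 32.5, with KO replicate 2 the highest at 0.4 uM. In the same order, neutrophil genes ran 54.1 to 67.6, 76.1 to 325, 69.4 to 147, 74.9 to 95.4, 52.9 to 94.0 and 25.2 to 87.0, and replicates 1 and 3 were the high KO libraries at 0.4 uM. Progenitor markers ran 0.974 to 3.08, 2.71 to 5.37, 10.9 to 14.4, 0.853 to 1.29, 0.622 to 1.03 and 1.38 to 1.73, highest in KO at 10 uM. The macrophage list ran 55885 to 62442, 44797 to 54007, 39805 to 60508, 61465 to 66158, 63347 to 68712 and 43337 to 47404, with Lyz2 the most abundant. At 0.0006 uM endothelial genes ran 75.2 to 112 in KO and 42.8 to 48.9 in NTC, and at 0.016 uM 92.0 to 135 and 39.8 to 49.0. Monocyte markers ran 624 to 841 and 1335 to 1557, then 734 to 1025 and 1393 to 1606. Progenitor markers ran 1.60 to 4.61 and 0.505 to 1.25, then 2.98 to 4.34 and 0.600 to 1.03. Neutrophil genes overlapped at both doses.

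At the lower doses members still rose in KO cells. At 0.0006 uM 6 members rose in KO over NTC (H2-K1, H2-D1, B2m, Psmb8, Psmb9 and Psmb10), where 13.3% of all genes rose. Psmb9 lost its call without KO replicates 2 or 3 or NTC replicates 1, 2 or 3 (adjusted p 0.0899, 0.0835, 0.0676, 0.0519 and 0.0819, range 0.0356 to 0.0899 over 6 such fits). At 0.016 uM 8 members rose, all but Tap2 and Nlrc5, where 16.3% of all genes rose. H2-K1 read 10.88, 10.97 and 10.78 in KO and 7.98, 7.76, 7.84 and 7.90 in NTC at that dose, with no overlap (log2 fold change 3.01, SE 0.30, adjusted p 1.15e-08). Psmb10 read 7.37, 7.48 and 6.87 and 5.58, 5.51, 5.62 and 5.56, also apart (log2 fold change 1.67, SE 0.32, adjusted p 0.000196). Tapbp lost its call without KO replicates 1 or 2 (adjusted p 0.0715 and 0.0643, range 0.0303 to 0.0715 over 7 such fits). Tap2 passed with values adjusted for GC content (Tap2 0.88, adjusted p 0.0460, range 0.000898 to 0.128 over alternatives). Against their own cells without drug, KO macrophages had 0 of 10 members past the threshold by limma at 0.0006 uM (0 at an unadjusted p under 0.05, 2.31% of all genes passed). At 0.016 uM it was again 0 of 10 (0 at an unadjusted p under 0.05, 5.98% of all genes). At 0.0006 uM Tap1 rose with KO 0.4 uM replicate 2 out, only the groups compared and quantile normalization (adjusted p 2.78e-06, 0.000197 and 0.0432, range 2.78e-06 to 0.115), Tap2 and Tapbp rose with KO 0.4 uM replicate 2 out and only the groups compared (adjusted p for Tap2 0.0330 and 0.0174, range 0.0174 to 0.254, for Tapbp 0.000472 and 0.000133, range 0.000133 to 0.137) and Psmb9 lost its call with no filter on low values (adjusted p 0.0550, range 3.33e-08 to 0.0550). At 0.016 uM Tap2 rose with KO 0.4 uM replicate 2 out and only the groups compared (adjusted p 0.00702 and 0.000898, range 0.000898 to 0.128). Against no drug at 0.016 uM Psmb8, Psmb9 and Psmb10 rose with KO 0.4 uM replicate 2 out (adjusted p for Psmb8 0.0114, range 0.0114 to 0.483, for Psmb9 0.00643, range 0.00643 to 0.584, for Psmb10 0.00830, range 0.00830 to 0.572).

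At 0.4 uM the result turned on 1 library. H2-K1 read 7.60, 9.92 and 7.63 in the 3 KO libraries and 7.73, 7.58, 7.66 and 7.58 in NTC. Tap1 read 3.63, 8.16 and 3.60 against 4.26, 3.92, 4.21 and 3.82. In both genes replicate 2 was far above every other library, and replicates 1 and 3 lay within the NTC range of H2-K1 and below that of Tap1. With all 3 libraries in, the members B2m, Tapbp and Psmb10 rose in KO over NTC, where 7.51% of all genes rose. Without replicate 2 there were 0 by limma, where 3.6% of all genes rose, and B2m had a log2 fold change of 0.14 (adjusted p 0.568), Tapbp 0.36 (0.335) and Psmb10 0.36 (0.0843). H2-K1 rose without KO replicates 1 or 3 (adjusted p 0.00874 and 0.0123, range 0.00874 to 0.953 over 7 such fits, log2 fold change 0.75 with all libraries, 1.1 and 1.12 without these). Tap1 rose without KO replicates 1 or 3 (adjusted p 0.0305 and 0.0311, range 0.0305 to 0.326 over 7 such fits, log2 fold change 1.08 with all libraries, 1.83 and 1.85 without these). Psmb8 rose without KO replicates 1 or 3 (adjusted p 0.00358 and 0.00877, range 0.00358 to 0.717 over 7 such fits). Psmb9 rose without KO replicates 1 or 3 (adjusted p 0.0110 and 0.0324, range 0.0110 to 0.433 over 7 such fits, log2 fold change 0.77 with all libraries, 1.32 and 1.20 without these). B2m lost its call without KO replicate 2 or NTC replicates 1, 2 or 3 (adjusted p 0.568, 0.0740, 0.0799 and 0.0874, range 0.00191 to 0.568 over 7 such fits). Tapbp lost its call without KO replicate 2 or NTC replicate 3 (adjusted p 0.335 and 0.0502, range 0.00152 to 0.335 over 7 such fits). Under other alternatives of this comparison B2m lost its call with eBayes without trend, no filter on low values, only the groups compared, quantile normalization and replicate block (adjusted p 0.0513, 0.0756, 0.377, 0.146 and 0.0549, range 0.0353 to 0.377), Tapbp and Psmb10 lost their calls with only the groups compared (adjusted p for Tapbp 0.310, range 0.0192 to 0.310, for Psmb10 0.306, range 0.0131 to 0.306) and Psmb8 rose with mean log2 CPM above 2 (adjusted p 0.04995, range 0.04995 to 0.390).

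Against KO cells without drug, 3 members fell at 0.4 uM (H2-K1, H2-D1 and B2m), where 11.3% of all genes fell. H2-K1 had log2 fold change -2.44, SE 0.32, adjusted p 2.27e-06. Without KO replicate 2 at 0.4 uM, where 14.7% of all genes fell, 9 fell: H2-K1 -3.21 (adjusted p 1.04e-15), H2-D1 -2.01 (adjusted p 0.000699), B2m -2.58 (adjusted p 2.00e-14), Tap1 -2.79 (adjusted p 7.44e-10), Tap2 -1.10 (adjusted p 0.00360), Tapbp -1.07 (adjusted p 0.000315), Psmb8 -1.01 (adjusted p 1.37e-05), Psmb9 -1.32 (adjusted p 2.81e-08) and Psmb10 -0.85 (adjusted p 1.01e-05). Nlrc5 had -1.69 (adjusted p 0.375) in that fit. Among the 9, the adjusted p of Tap1 ran from 7.44e-10 to 0.627 over the fits that each leave out 1 library, and that of H2-K1 from 1.04e-15 to 5.01e-05. Among alternatives with all libraries, H2-K1 and B2m lost their calls with only the groups compared (adjusted p for H2-K1 0.0791, range 3.87e-08 to 0.0791, for B2m 0.118, range 1.29e-06 to 0.118).

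At 10 uM the KO cells lay below NTC in part of the members. Against KO cells without drug 7 members fell, all but Psmb8, Psmb10 and Nlrc5, where 31.6% of all genes fell, and the median was -3.05 against 0.05. H2-K1 read 6.98, 6.66, 7.08 and 7.00 at 10 uM against 11.02, 10.78 and 10.68 without drug. All treated libraries were below all untreated libraries (log2 fold change -3.89, SE 0.30, adjusted p 8.79e-12). Tap1 read 2.31, 2.33, 3.23 and 2.35 against 6.65, 6.38 and 6.17 (log2 fold change -3.85, SE 0.58, adjusted p 1.70e-06). Tap2 read 2.83, 2.55, 4.29 and 3.32 against 7.27, 7.45 and 7.31 (log2 fold change -4.10, SE 0.35, adjusted p 8.86e-11). Psmb8 read 8.16, 8.49, 8.22 and 8.02 against 8.54, 8.76 and 8.89, and its groups lay close without overlap (log2 fold change -0.51, SE 0.32, adjusted p 0.166). Replicate 3 was the highest of the treated libraries in Tap1 and Tap2. The GC index of these libraries was -1.19, -1.10, -0.56 and -0.78, beside 0.39, 0.44 and 0.30 without drug. With values adjusted for GC content Psmb9 lost its call (Psmb9 -0.81, adjusted p 0.0595, range 2.79e-11 to 0.0595 over alternatives). How far GC content enters the other 6 was not tested beyond that adjustment. Against no drug, Psmb8 and Nlrc5 fell with KO 0.4 uM replicate 2 out and only the groups compared (adjusted p for Psmb8 0.00137 and 0.00942, range 0.00137 to 0.712, for Nlrc5 0.0329 and 0.00210, range 0.00210 to 0.0999) and Psmb10 fell with KO 0.4 uM replicate 2 out, only the groups compared and quantile normalization (adjusted p 2.36e-06, 0.000542 and 0.0357, range 2.36e-06 to 0.964).

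KO against NTC at 10 uM gave 0 members that rose and 4 that fell (H2-D1, Tap1, Tap2 and Tapbp), where 23.4% of all genes fell. Tap2 read 2.83, 2.55, 4.29 and 3.32 in KO and 5.72, 5.84 and 6.17 in NTC. Tapbp read 4.23, 4.24, 5.48 and 4.86 and 6.33, 6.43 and 6.73. In both genes every KO library was below every NTC library (log2 fold change -2.66, SE 0.35, adjusted p 7.15e-07 for Tap2 and log2 fold change -1.79, SE 0.37, adjusted p 0.000236 for Tapbp). Tap1 lost its call without KO replicates 1, 2 or 4 or NTC replicates 1 or 2 (adjusted p 0.0662, 0.0676, 0.0613, 0.0672 and 0.112, range 0.0219 to 0.112 over 7 such fits). With values adjusted for GC content H2-D1 and Tap1 lost their calls (H2-D1 -0.83, adjusted p 0.0611, range 0.000963 to 0.0611 over alternatives; Tap1 -1.08, adjusted p 0.138, range 5.56e-07 to 0.138 over alternatives), and B2m fell (B2m -0.67, adjusted p 0.0466, range 0.00231 to 0.370 over alternatives). The change of the KO effect from 0 to 10 uM was tested as an interaction. It was negative for 6 members (H2-K1, H2-D1, B2m, Tap1, Tap2 and Tapbp), where 19.7% of all genes had a negative interaction. H2-K1 had -3.12 (SE 0.44, adjusted p 3.40e-06) and Tap1 -3.33 (SE 0.85, adjusted p 0.00293). For KO over NTC at 10 uM, H2-K1 fell with KO 0.4 uM replicate 2 out, mean log2 CPM above 2, only the groups compared and quantile normalization (adjusted p 8.17e-06, 0.0497, 0.00143 and 0.00841, range 8.17e-06 to 0.509), B2m and Psmb9 fell with KO 0.4 uM replicate 2 out and only the groups compared (adjusted p for B2m 0.00231 and 0.0250, range 0.00231 to 0.370, for Psmb9 0.00695 and 0.0351, range 0.00695 to 0.986), Tap1 lost its call with no filter on low values (adjusted p 0.0602, range 5.56e-07 to 0.138) and Psmb8 rose with KO 0.4 uM replicate 2 out and only the groups compared (adjusted p 0.0164 and 0.0307, range 0.0164 to 0.483). Of the interaction, Psmb8, Psmb9 and Psmb10 passed with KO 0.4 uM replicate 2 out and only the groups compared (adjusted p for Psmb8 0.0372 and 0.0379, range 0.0372 to 0.983, for Psmb9 1.82e-06 and 0.000126, range 1.82e-06 to 0.275, for Psmb10 3.05e-05 and 0.000353, range 3.05e-05 to 0.544).

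In NTC macrophages no dose moved a member past the threshold by limma. The counts were 0 of 10 at 0.0006 uM (0 at an unadjusted p under 0.05, 0% of all genes passed) and 0 of 10 at 0.016 uM (0 and 0%). At 0.4 uM it was 0 of 10 (2 at an unadjusted p under 0.05, 0.00882% of all genes). At 10 uM it was 0 of 10 as well (3 at an unadjusted p under 0.05, 13.6% of all genes). H2-K1 at 10 uM read 7.53, 7.70 and 7.66 against 8.78, 8.23 and 8.22 without drug. The treated libraries were the lower ones, with no overlap (log2 fold change -0.78, SE 0.32, adjusted p 0.103). B2m passed with values adjusted for GC content (B2m -0.86, adjusted p 0.0476, range 2.91e-05 to 0.157 over alternatives). All dose comparisons of a genotype share the libraries without drug. At 0.016 uM in NTC cells H2-K1 fell with KO 0.4 uM replicate 2 out (adjusted p 0.0384, range 0.0384 to 1). At 0.4 uM in NTC cells H2-K1 fell with KO 0.4 uM replicate 2 out (adjusted p 0.000110, range 0.000110 to 0.830) and B2m fell with KO 0.4 uM replicate 2 out and only the groups compared (adjusted p 0.00144 and 0.0271, range 0.00144 to 0.923). At 10 uM in NTC cells H2-K1 fell with KO 0.4 uM replicate 2 out, only the groups compared and quantile normalization (adjusted p 3.37e-05, 0.00995 and 0.0420, range 3.37e-05 to 0.230) and B2m and Tap2 fell with KO 0.4 uM replicate 2 out and only the groups compared (adjusted p for B2m 2.91e-05 and 0.00223, range 2.91e-05 to 0.157, for Tap2 0.0261 and 0.00482, range 0.00482 to 0.301).

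**Figure D3:**
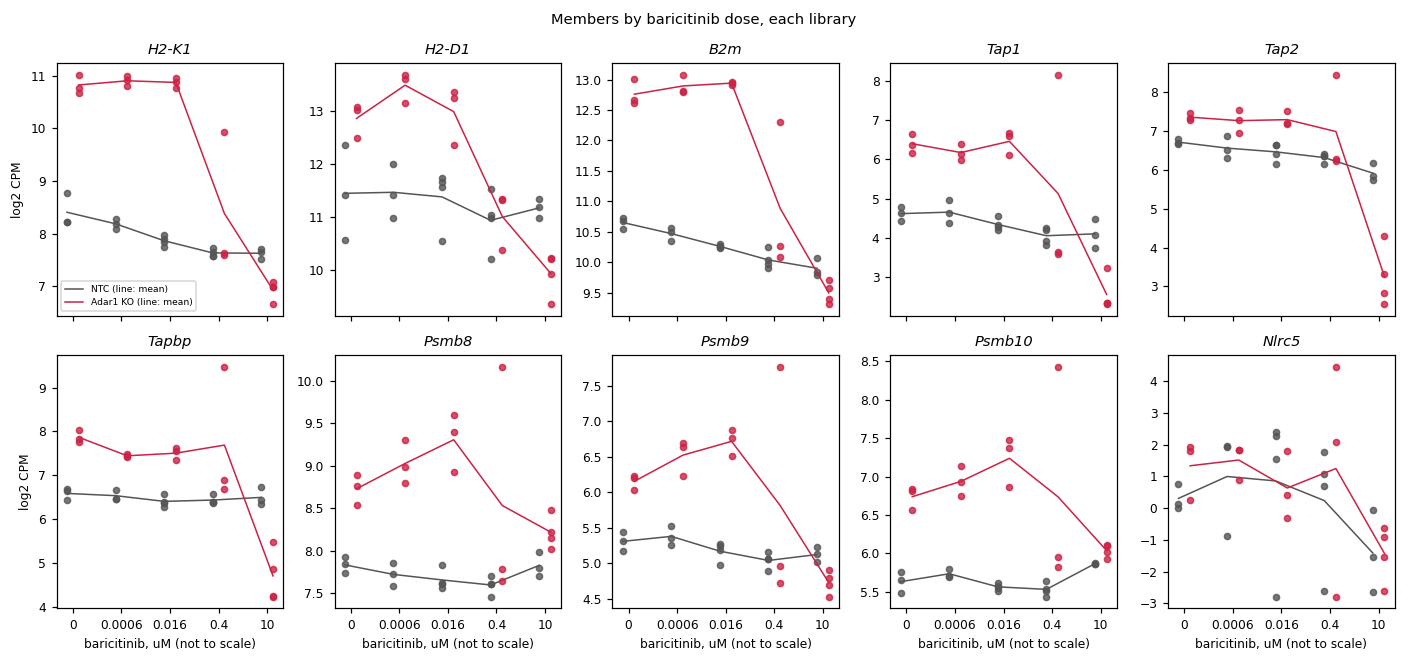
log2 CPM (y axis) of each member in NTC and Adar1 KO macrophages at the 5 labelled baricitinib doses in uM (x axis, equal steps, not to scale), 1 point per library with lines through the group means. KO points lie above NTC for H2-K1 and B2m up to 0.016 uM, and at 0.4 uM the lone high KO point in most members is replicate 2.

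The brain comparisons ask how near engrafted cells come to microglia, and how they differ from the macrophages grown in vitro. For 8 of 10 members, all but Tap2 and Tapbp, ER-Hoxb8 MLCs had the highest group mean of the set. Over microglia 8 of 10 rose, all but Tap2 and Tapbp, and 0 fell, where 14.9% of all genes rose, with a median of 3.00 against -0.10. Over BMD MLCs the same 8 rose, where 6.87% of all genes rose, with a median of 2.12 against -0.22. Both comparisons share the ER-Hoxb8 MLC libraries. With GFPHox libraries alone 9 members rose over microglia, where 12% of all genes rose, and with WTHox libraries alone 7, where 14.3% did.

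Heavy chains and B2m come first. H2-K1 ran from 8.93 to 10.74 with a median of 9.53 in ER-Hoxb8 MLCs, from 6.29 to 8.05 with a median of 7.48 in BMD MLCs and from 4.94 to 6.83 with a median of 6.27 in microglia. ER-Hoxb8 MLCs lay above all libraries of both other groups (log2 fold change 3.69, SE 0.33, adjusted p 1.48e-09 over microglia and log2 fold change 2.26, SE 0.37, adjusted p 9.70e-05 over BMD MLCs). H2-D1 ran from 11.50 to 12.95 with a median of 11.68, then from 9.33 to 10.82 with a median of 10.43, then from 5.49 to 9.48 with a median of 8.67 in the same order of groups. Its ER-Hoxb8 values were above the rest too (log2 fold change 1.81, SE 0.57, adjusted p 0.0330 over BMD MLCs). H2-D1 lost its call without BMD MLCs replicates 1, 2 or 3 or ER-Hoxb8 MLCs replicates 3 or 6 (adjusted p 0.0551, 0.0697, 0.0692, 0.0769 and 0.0711, range 0.0319 to 0.0769 over 12 such fits). B2m ran from 12.13 to 13 with a median of 12.77, then from 10.49 to 10.90 with a median of 10.81, then from 10.57 to 11.20 with a median of 10.88. BMD MLCs and microglia overlapped in B2m, and ER-Hoxb8 MLCs did not (log2 fold change 1.86, SE 0.16, adjusted p 5.87e-10 over microglia).

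For transport and loading, Tap1 ran from 6.39 to 9.00 with a median of 7.94 in ER-Hoxb8 MLCs, from 3.10 to 5.09 with a median of 4.37 in BMD MLCs and from 2.54 to 5.12 with a median of 4.29 in microglia. ER-Hoxb8 MLCs replicates 4 and 5, both of low GC index, were the lowest of their group and still above the rest (log2 fold change 3.64, SE 0.44, adjusted p 2.82e-07 over microglia). Tap2 ran from 3.55 to 8.98 with a median of 6.95 in ER-Hoxb8 MLCs, from 4.21 to 6.52 with a median of 6.12 in BMD MLCs and from -1.08 to 6.42 with a median of 5.66 in microglia. Here the groups overlapped, with ER-Hoxb8 MLCs 4 and 5 at 3.55 and 3.89 and microglia 8 at -1.08 (log2 fold change 2.15, SE 0.96, adjusted p 0.0870 over microglia). Tap2 rose without ER-Hoxb8 MLCs replicates 4 or 5 (adjusted p 0.0305 and 0.0397, range 0.0305 to 0.214 over 15 such fits). Its log2 fold change over microglia was 3.77 with GFPHox libraries alone and 0.53 with WTHox libraries alone. Over BMD MLCs it was 2.35 and -0.90, neither past the threshold. Without the libraries of low GC index, Tap2 and Tapbp passed over microglia (Tap2 1.98, adjusted p 0.000137, range 0.000137 to 0.759 over alternatives; Tapbp 1.01, adjusted p 0.0248, range 0.0248 to 0.817 over alternatives). The same held over BMD MLCs (Tap2 1.81, adjusted p 0.00124, range 0.00124 to 0.773 over alternatives; Tapbp 1.10, adjusted p 0.0306, range 0.0306 to 0.860 over alternatives). Over microglia Tap2 rose with GFPHox libraries alone, replicate block and values adjusted for GC content (adjusted p 0.0124, 0.0376 and 0.0190, range 0.000137 to 0.759) and Tapbp rose with values adjusted for GC content (adjusted p 0.0324, range 0.0248 to 0.817).

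The immunoproteasome subunits and Nlrc5 followed. Psmb8 ran from 8.44 to 10.35 with a median of 9.06 in ER-Hoxb8 MLCs and from 3.37 to 7.18 with a median of 6.72 in microglia, with no overlap and with microglia replicate 8 far below its group (log2 fold change 2.90, SE 0.40, adjusted p 2.55e-06). Psmb9 ran from 6.13 to 8.31 with a median of 7.63 and from 3.67 to 4.96 with a median of 4.45 (log2 fold change 3.11, SE 0.28, adjusted p 1.32e-09). Psmb10 ran from 5.60 to 8.46 with a median of 7.16 and from 4.80 to 6.57 with a median of 5.89, where the groups overlapped (log2 fold change 1.18, SE 0.31, adjusted p 0.00422). Nlrc5 ran from 5.66 to 7.08 with a median of 6.31 in ER-Hoxb8 MLCs, from -0.69 to 2.03 with a median of 1.31 in BMD MLCs and from -3.62 to -0.11 with a median of -2.25 in microglia. All 6 ER-Hoxb8 libraries were far above, and microglia replicate 9 sat at the lowest value of the set (log2 fold change 8.15, SE 0.54, adjusted p 4.25e-12), so that fold depends on the lowest value. With replicates 4 to 6 alone (WTHox), Psmb10 lost its calls over microglia (Psmb10 0.92, adjusted p 0.0791, range 8.85e-05 to 0.0791 over alternatives) and over BMD MLCs (Psmb10 0.97, adjusted p 0.123, range 5.64e-05 to 0.123 over alternatives). With either GFPHox or WTHox libraries alone H2-D1 lost its call over BMD MLCs (H2-D1 1.83, adjusted p 0.1, range 0.00118 to 0.1 over alternatives with GFPHox; 1.79, adjusted p 0.0960 with WTHox). Over BMD MLCs H2-D1 lost its call with no filter on low values and quantile normalization (adjusted p 0.0561 and 0.0651, range 0.00118 to 0.1).

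In BMD MLCs over microglia 3 members rose (H2-K1, H2-D1 and Nlrc5), where 10.8% of all genes rose. H2-K1 had log2 fold change 1.43, SE 0.33, adjusted p 0.00244 and its groups overlapped in BMD MLCs replicate 3, a library of low GC index. Nlrc5 had log2 fold change 2.86, SE 0.54, adjusted p 0.000264, with BMD MLCs replicate 5 at -0.69 among the microglia values. Without the libraries of low GC index H2-K1, H2-D1 and Nlrc5 kept their calls (log2 fold change 1.16, 1.51 and 3.02). H2-D1 had 2.12 with them. Tap2 and Tapbp did not pass, at 0.17 and -0.09 without these libraries and 1.43 and 0.92 with them. Over BMD macrophages 0 of 10 members passed by limma, with 1 at an unadjusted p under 0.05, where 30.7% of all genes passed. Without BMD MLCs replicate 3 and the other low GC libraries, where 23.3% of all genes fell, 3 members fell (H2-K1 -0.83, adjusted p 0.0232, range 0.0232 to 0.188 over alternatives; Tap2 -1.28, adjusted p 0.0125, range 0.0107 to 0.526 over alternatives; Tapbp -1.09, adjusted p 0.0287, range 0.0155 to 0.447 over alternatives). The BMD MLCs kept in that fit still had a GC index of -0.30 to 0.16, beside 0.69 to 0.92 in BMD macrophages. With values adjusted for GC content 0 members rose and 0 fell, where 1695 of 11608 genes rose and 1775 fell. Over BMD macrophages H2-K1, Tap2, Tapbp and Psmb10 fell with only the groups compared (adjusted p for H2-K1 0.0331, range 0.0232 to 0.188, for Tap2 0.0107, range 0.0107 to 0.526, for Tapbp 0.0155, range 0.0155 to 0.447, for Psmb10 0.0343, range 0.0343 to 0.987).

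ER-Hoxb8 MLCs over ER-Hoxb8 macrophages gave 7 of 10 members that rose, all but H2-D1, Tap2 and Tapbp, where 16.6% of all genes rose. B2m read 10.02, 9.83 and 9.56 in the macrophages, below all 6 MLC libraries (log2 fold change 2.91, SE 0.22, adjusted p 1.17e-10). Psmb9 read 4.83, 4.69 and 4.95, again below all 6 (log2 fold change 2.66, SE 0.38, adjusted p 6.66e-06). Psmb8 lost its call without ER-Hoxb8 macrophages replicate 1 (adjusted p 0.0513, range 0.00981 to 0.0513 over 9 such fits). Psmb10 lost its call without ER-Hoxb8 macrophages replicate 3 (adjusted p 0.0920, range 0.00200 to 0.0920 over 9 such fits). H2-D1 passed with values adjusted for GC content (H2-D1 2.13, adjusted p 0.00260, range 0.00260 to 0.211 over alternatives). Grown in vitro, the 2 kinds of macrophages showed 0 of 10 members past the threshold by limma (2 at an unadjusted p under 0.05), where 1.61% of all genes passed. The difference in the step from macrophages to MLCs was tested as an interaction, in which donor line and engraftment are mixed, since the ER-Hoxb8 macrophages come from a Cas9 line and the MLCs from lines named GFPHox and WTHox. It was positive for 5 members (H2-K1, B2m, Tap1, Psmb9 and Nlrc5), where 2.18% of all genes had a positive interaction. B2m had 2.63 (SE 0.30, adjusted p 5.32e-06). Tap1 lost its call without BMD macrophages replicate 3 or ER-Hoxb8 macrophages replicate 2 (adjusted p 0.0783 and 0.0515, range 0.00672 to 0.0783 over 18 such fits). Psmb10 rose without ER-Hoxb8 MLCs replicate 4 (adjusted p 0.0141, range 0.0141 to 0.243 over 18 such fits). Without the libraries of low GC index the count was 8, where 6.3% of all genes had a positive interaction, with Psmb8, Psmb10 and Tap2 added (Psmb8 2.55, adjusted p 0.00103, range 0.00103 to 0.169 over alternatives; Psmb10 2.35, adjusted p 0.000722, range 0.000722 to 0.195 over alternatives; Tap2 1.89, adjusted p 0.0360, range 0.0360 to 0.937 over alternatives). Over ER-Hoxb8 macrophages H2-D1 rose with only the groups compared and the low GC libraries out (adjusted p 0.0438 and 0.0186, range 0.00260 to 0.211) and Psmb10 lost its call with WTHox libraries alone and only the groups compared (adjusted p 0.0982 and 0.0967, range 2.24e-05 to 0.0982). For this interaction Tap1 lost its call with WTHox libraries alone (adjusted p 0.0695, range 5.90e-05 to 0.0695), Psmb8 passed with only the groups compared, replicate block and values adjusted for GC content (adjusted p 0.0107, 0.00241 and 0.0163, range 0.00103 to 0.169) and Psmb10 passed with GFPHox libraries alone, replicate block and values adjusted for GC content (adjusted p 0.00672, 0.0405 and 0.00751, range 0.000722 to 0.195).

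Markers of other cell types differed among these groups, and their part in the results was not tested. T cell genes (Cd3e, Cd3d, Cd3g, Trac and Lck) summed to 28.6, 37.1, 236, 67.6, 112 and 262 CPM in ER-Hoxb8 MLCs 1 to 6, with Cd3g the most abundant. BMD MLCs held 7.03 to 95.8 (median 51.1, Cd3d the most abundant), and microglia 3.62 to 23.6 (median 9.63, Cd3d the most abundant). Among T cell genes in ER-Hoxb8 MLCs over microglia, of 4 tested, 4 rose (Cd3e 4.14, Cd3d 1.95, Cd3g 3.84 and Lck 2.26) and 0 fell, where 14.9% of all genes tested rose and 18.9% fell, and the median log2 fold change was 3.05 against -0.10. NK cell genes (Ncr1, Klrb1c, Nkg7, Gzma and Prf1) summed to 48.9, 28.2, 155, 8.14, 32.4 and 843 CPM in ER-Hoxb8 MLCs, with Nkg7 the most abundant and replicate 6 the highest. BMD MLCs held 4.89 to 17.4 (median 8.49, Nkg7 the most abundant), and microglia 0 to 22.2 (median 10.1, Gzma the most abundant). For NK cell genes over microglia, of 4 tested, 2 rose (Klrb1c 4.84 and Nkg7 4.08) and 0 fell, where 14.9% of all genes tested rose and 18.9% fell, and the median log2 fold change was 2.90 against -0.10. Neutrophil genes (S100a8, S100a9, Ngp, Camp and Ltf) summed to 760, 237, 330, 17827, 41010.5 and 3345 CPM in ER-Hoxb8 MLCs, so replicates 4 and 5 stood out. In BMD MLCs the neutrophil sum was 4431 to 32940.0 (median 29821, Ngp the most abundant) and in microglia 406 to 5846 (median 1948, Ngp the most abundant). For neutrophil genes over microglia, of 5 tested, 0 rose and 0 fell by limma, with 0 at an unadjusted p under 0.05, where 14.9% of all genes tested rose and 18.9% fell, and the median log2 fold change was 0.38 against -0.10. For neutrophil genes over BMD MLCs, of 5 tested, 3 fell (Ngp -3.15, Camp -2.99 and Ltf -3.77) and 0 rose, where 6.87% of all genes tested rose and 8.22% fell, and the median log2 fold change was -2.99 against -0.22. Endothelial genes summed to 44.8 to 99.9 CPM in ER-Hoxb8 MLCs, 10.8 to 28.4 in BMD MLCs and 32.4 to 70.4 in microglia. Monocyte markers summed to 215 to 6563, 452 to 1423 and 16.5 to 105 in the same order, so microglia were lowest. Oligodendrocyte markers summed to 125 to 182 in ER-Hoxb8 MLCs 1 to 5 and 50.8 in replicate 6. They were 18.8 to 105 in BMD MLCs and 28.2 to 82.9 in microglia other than replicate 8, which held 677. Erythroid genes summed to 151 to 4749 in ER-Hoxb8 MLCs (replicate 5 the highest), 14.9 to 576 in BMD MLCs and 202 to 4589 in microglia. No gene of the T cell, NK cell and neutrophil lists was at the lowest value in all libraries of a group. Replicate 6 of ER-Hoxb8 MLCs, with the highest NK sum and the lowest P2ry12, left 8 members over microglia when it was taken out, where 13.8% of all genes rose.

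**Figure D4:**
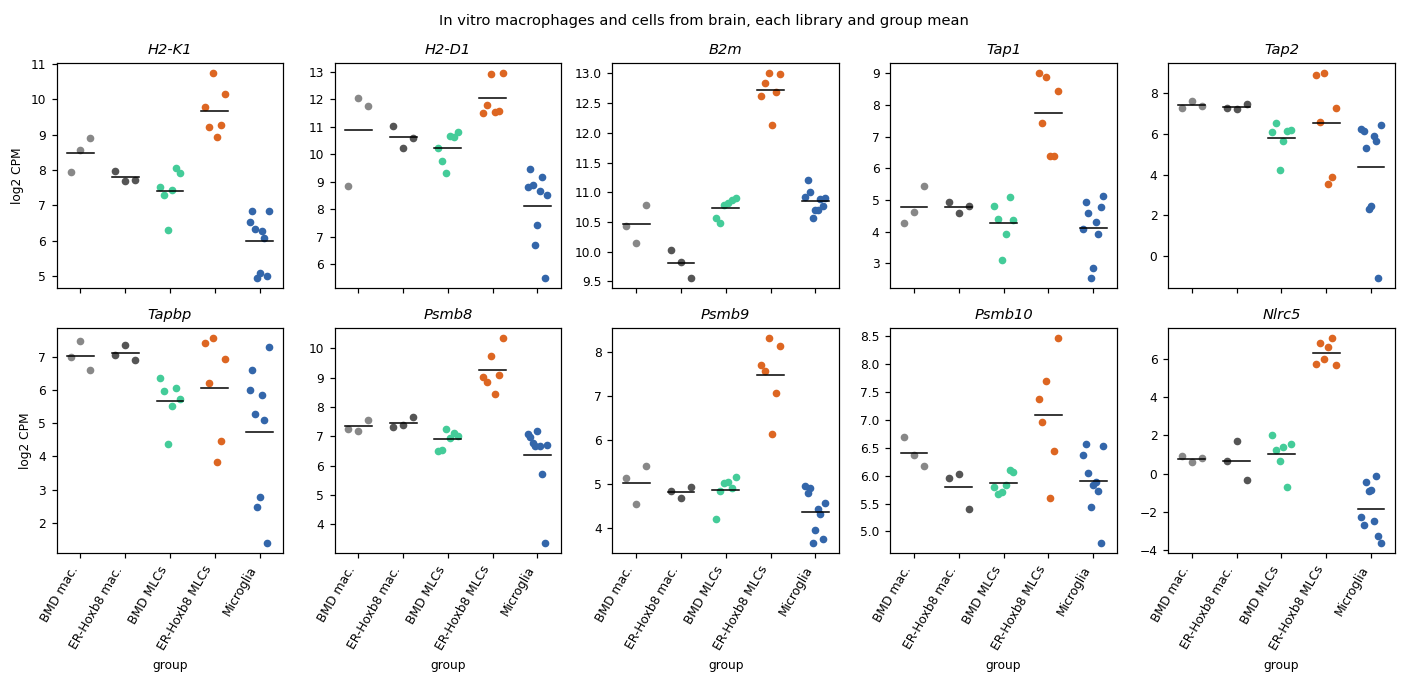
log2 CPM (y axis) of each member in BMD and ER-Hoxb8 macrophages, BMD and ER-Hoxb8 MLCs and microglia, 1 point per library with a line at the group mean. ER-Hoxb8 MLCs lie highest for H2-K1, B2m, Tap1, Psmb9 and Nlrc5.

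In marrow cells few members passed. In BM monocytes over BM progenitors 1 member rose, Psmb10, where 6.96% of all genes rose. It read 6.68, 7.12 and 7.32 against 5.55, 6.21 and 6.19. The groups did not overlap (log2 fold change 1.06, SE 0.31, adjusted p 0.0463), yet the call was lost without any 1 of the 6 libraries, with adjusted p of 0.0558 to 0.192. Marker sums differed here too (CPM, BM monocytes against BM progenitors), and their part was not tested. Erythroid genes summed to 69.8 to 253 against 1410 to 3163, and B cell genes to 56.8 to 75.9 against 128 to 849. Monocyte markers were higher, at 8902 to 11162 against 794 to 1046. In ER-Hoxb8 over BM progenitors 2 fell, Tap1 and Psmb9, where 14.3% of all genes fell. Marker sums of other cells differed (CPM, ER-Hoxb8 against BM progenitors), and their part was not tested. NK cell genes summed to 0.457 to 0.582 against 235 to 444, and T cell genes to 1.74 to 3.52 against 45.5 to 81.5. B cell genes were 1.54 to 19.4 against 128 to 849, and erythroid genes 1.48 to 3.31 against 1410 to 3163. Astrocyte and microglia markers were higher, at 19.6 to 98.6 against 5.07 to 7.54 and 126 to 356 against 52.3 to 91.0. Tap1 read 5.09, 4.92 and 4.56 against 6.37, 6.04 and 6.05, with all ER-Hoxb8 libraries lower (log2 fold change -1.30, SE 0.23, adjusted p 0.00172). Psmb9 read 4.30, 4.89 and 4.78 against 5.14, 5.55 and 5.46, also apart (log2 fold change -0.73, SE 0.24, adjusted p 0.0448). Psmb9 lost its call without BM progenitors replicates 1, 2 or 3 or ER-Hoxb8 progenitors replicate 1 (adjusted p 0.0526, 0.149, 0.137 and 0.149, range 0.0311 to 0.149 over 6 such fits). Without ER-Hoxb8 progenitors replicate 2, the library that resembles day 4 cells, 4 passed, where 12.4% of all genes rose and 16.2% fell: Nlrc5 fell (-2.42, adjusted p 0.0435, range 0.0435 to 0.219 over the fits that each leave out 1 library) and Tap2 rose (0.58, adjusted p 0.0467, range 0.0467 to 0.756) besides. In BM monocytes B2m rose with only the groups compared (adjusted p 0.0243, range 0.0243 to 0.329), Psmb8 and Psmb9 rose with only the groups compared and replicate block (adjusted p for Psmb8 0.0406 and 0.0219, range 0.0219 to 0.194, for Psmb9 0.0306 and 0.0481, range 0.0306 to 0.0962) and Psmb10 lost its call with eBayes without trend and no filter on low values (adjusted p 0.0656 and 0.0699, range 0.0126 to 0.0699). In ER-Hoxb8 over BM progenitors Psmb9 lost its call with eBayes without trend, mean log2 CPM above 2, no filter on low values and only the groups compared (adjusted p 0.0621, 0.0548, 0.0541 and 0.139, range 0.0271 to 0.139) and Nlrc5 fell with replicate block (adjusted p 0.0196, range 0.0196 to 0.336).

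From ER-Hoxb8 progenitors to day 4, 0 of 10 members passed by limma, with 1 at an unadjusted p under 0.05, and 0% of all genes passed. Libraries of the same number were correlated in this comparison, and with the replicate block 0 members passed as well (B2m 0.44, adjusted p 0.755, range 0.755 to 0.909; Tap1 -0.41, adjusted p 0.452, range 0.452 to 0.889). Without progenitors replicate 2, 1333 genes passed (6% of all rose and 5.05% fell) and 1 member, Tap2. Tap2, the transporter chain, read 8.16, 7.30 and 8.18 in progenitors and 7.15, 7.32 and 7.00 at day 4. Progenitors replicates 1 and 3 were the high libraries, and replicate 2 lay among the day 4 values. The log2 fold change was -0.72 with it (adjusted p 0.497) and -1.01 without it (adjusted p 0.00911, range 0.00911 to 0.793 over the fits that each leave out 1 library).

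**Figure D5:**
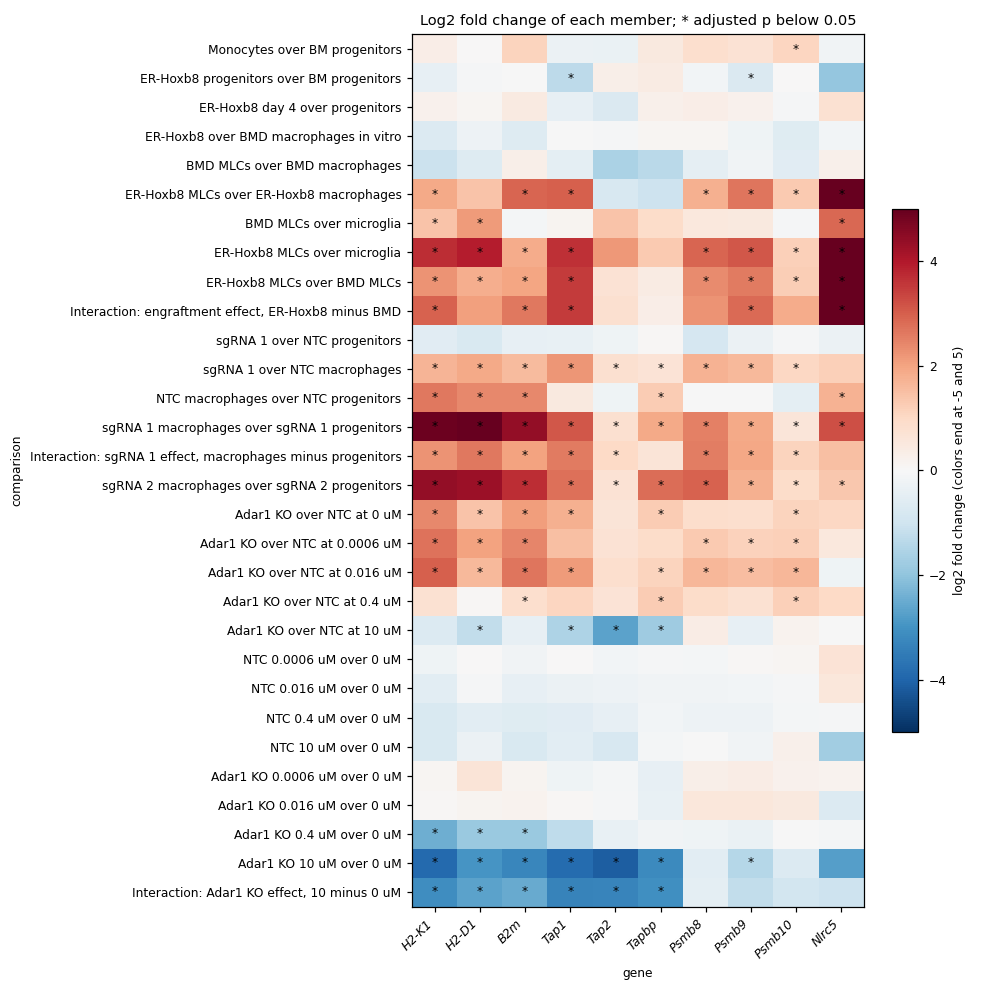
Heat map of log2 fold change (color scale, ending at -5 and 5) for each member (columns) in each of the 30 comparisons (y axis), with an asterisk where the adjusted p is below 0.05. Most members are red in Adar1 KO macrophages without drug and in ER-Hoxb8 MLCs over microglia, and blue in KO cells at 10 uM over no drug.

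Ordered by group mean (± SD, log2 CPM), H2-K1 in the set with brain cells ran ER-Hoxb8 MLCs 9.68 ± 0.68, BMD macrophages 8.47 ± 0.48, ER-Hoxb8 macrophages 7.79 ± 0.16, BMD MLCs 7.42 ± 0.62 and microglia 5.99 ± 0.78. Among those 5 groups, the neighbours ER-Hoxb8 macrophages and BMD MLCs lay within the larger of their SDs. Replicates 8 and 9 of microglia carry library names of another pattern than the other 7, and the count of members in ER-Hoxb8 MLCs over microglia was 8 without them, where 15.3% of all genes rose.

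Other genes of the pathway were read from lists, by the same fits. Nonclassical class I and class I-like genes, such as the H2-Q and H2-T genes, show peptides or other ligands to restricted receptors. In sgRNA 1 over NTC macrophages, of 17 tested, 13 rose, with the largest changes in H2-T24 (4.29, SE 0.39, adjusted p 1.56e-05), H2-Q6 (3.18, SE 0.51, adjusted p 0.00104) and H2-Q7 (3.12, SE 0.25, adjusted p 6.03e-06) and 2 fell (Mr1 -2.0 and Fcgrt -1.66), where 14.4% of all genes tested rose and 7.32% fell, and the median log2 fold change was 2.01 against 0.05. In KO cells at 10 uM over no drug, of 17 tested, 14 fell, with the largest changes in H2-Q6 (-6.61, SE 0.81, adjusted p 5.88e-08), H2-T24 (-5.66, SE 1.06, adjusted p 3.67e-05) and H2-Q7 (-4.20, SE 0.67, adjusted p 3.96e-06) and 0 rose, where 33.5% of all genes tested rose and 31.6% fell, and the median log2 fold change was -2.72 against 0.05. In ER-Hoxb8 MLCs over microglia, of 18 tested, 15 rose, with the largest changes in H2-Q6 (6.59, SE 0.36, adjusted p 1.89e-13), H2-Q7 (5.43, SE 0.38, adjusted p 1.29e-11) and H2-Q10 (4.23, SE 0.35, adjusted p 2.26e-10) and 2 fell (Cd1d1 -3.71 and Mr1 -2.09), where 14.9% of all genes tested rose and 18.9% fell, and the median log2 fold change was 2.83 against -0.10. The heavy chain genes are close in sequence, so reads may be shared among them.

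Irf1 and Irf9 are transcription factors that act after interferon, and were read beside the members. In sgRNA 1 over NTC macrophages Irf9 rose (log2 fold change 1.43, SE 0.21, adjusted p 0.000632). Irf1 read 6.53, 6.37 and 6.16 against 5.62 and 5.70 there and did not pass (log2 fold change 0.69, SE 0.25, adjusted p 0.0729). In KO cells at 10 uM over no drug both fell (Irf1 with log2 fold change -2.28, SE 0.42, adjusted p 3.10e-05 and Irf9 with log2 fold change -3.17, SE 0.39, adjusted p 5.18e-08). In ER-Hoxb8 MLCs over microglia both rose (Irf1 with log2 fold change 3.58, SE 0.34, adjusted p 3.83e-09 and Irf9 with log2 fold change 1.13, SE 0.19, adjusted p 3.34e-05).

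The constitutive 20S core and its partners make the particle that Psmb8, Psmb9 and Psmb10 enter. Of the 20S genes in sgRNA 1 macrophages, among 14 tested, 6 rose, with the largest changes in Psma6 (0.87, SE 0.14, adjusted p 0.000940), Psmb6 (0.64, SE 0.17, adjusted p 0.0184) and Psma2 (0.61, SE 0.14, adjusted p 0.00807) and 0 fell, where 14.4% of all genes tested rose and 7.32% fell, and the median log2 fold change was 0.45 against 0.05. Of the 20S genes in KO cells at 10 uM over no drug, among 14 tested, 12 rose, with the largest changes in Psmb3 (0.88, SE 0.10, adjusted p 1.18e-08), Psma7 (0.86, SE 0.09, adjusted p 7.98e-09) and Psmb6 (0.82, SE 0.12, adjusted p 7.77e-07) and 1 fell (Psmb5 -0.35), where 33.5% of all genes tested rose and 31.6% fell, and the median log2 fold change was 0.64 against 0.05. Of the 20S genes in ER-Hoxb8 over BMD MLCs, among 14 tested, 13 rose, with the largest changes in Psma5 (1.83, SE 0.22, adjusted p 1.47e-06), Psma4 (1.53, SE 0.20, adjusted p 5.28e-06) and Psma2 (1.49, SE 0.24, adjusted p 8.63e-05) and 0 fell, where 6.87% of all genes tested rose and 8.22% fell, and the median log2 fold change was 1.20 against -0.22. The length index, given above, differed here and in KO cells at 10 uM, and its part was not tested. Among activators and assembly factors in sgRNA 1 macrophages, of 9 tested, 2 rose (Psme1 0.97 and Psme2 1.53) and 0 fell, where 14.4% of all genes tested rose and 7.32% fell, and the median log2 fold change was 0.21 against 0.05. Psme1 and Psme2 form the PA28 cap that opens the core. Among the same factors in ER-Hoxb8 MLCs over microglia, of 9 tested, 4 rose (Psme1 2.04, Psme2 2.63, Pomp 0.74 and Psmg4 1.18) and 1 fell (Psmg2 -0.65), where 14.9% of all genes tested rose and 18.9% fell, and the median log2 fold change was 0.50 against -0.10. Peptide loading and trimming genes, chaperones and peptidases, gave this in sgRNA 1 macrophages: of 11 tested, 3 rose (Tapbpl 0.97, Ide 0.57 and Lnpep 0.61) and 1 fell (Sec61a1 -0.45), where 14.4% of all genes tested rose and 7.32% fell, and the median log2 fold change was 0.19 against 0.05. Over microglia, ER-Hoxb8 MLCs gave for the loading list: of 11 tested, 3 rose (Tapbpl 1.81, Erap1 1.09 and Lnpep 1.45) and 0 fell, where 14.9% of all genes tested rose and 18.9% fell, and the median log2 fold change was 0.27 against -0.10.

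Genes outside the lists were ranked by how closely their 10 group means in the baricitinib experiment follow the members' mean. Among the closest were Parp9 (r = 0.993), Oas1b (r = 0.992), Abi3 (r = 0.992), Gm4070 (r = 0.990), Dhx58 (r = 0.989), Gsk3a (r = 0.989), Parp11 (r = 0.989), Tnfsf10 (r = 0.988) and Ccrl2 (r = 0.987). Each member was set against the mean of the other members, which leaves it out, and r ran from 0.719 (Nlrc5) to 0.989 (Tap1). These are descriptions over 10 group means of libraries that share their processing, and KO replicate 2 at 0.4 uM enters the mean of its group.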

How the data were processed

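By the submitters' processing notes, reads were quantified with kallisto 0.46.0 on build GRCm39, checked with FastQC and MultiQC and analysed with edgeR and limma. The deposited table holds log2 (CPM) after the authors' TMM normalization (29957 lines, 1 of them without a gene name and left out). Starting from those values, limma 3.58.1 in R 4.3.3 fitted group means per set of libraries that share a lowest value, with eBayes and a trend. Genes needed log2 CPM above 0 in at least 3 libraries (6 in the set with brain cells). This left 12134 genes for marrow cells and ER-Hoxb8 differentiation, 10859 for the in vitro macrophages, 12647 for the brain set, 11119 for NTC and sgRNA 1, 10776 for sgRNA 2 and 11339 for baricitinib. Benjamini-Hochberg adjustment ran over all genes tested. Named genes are the 10 members, Adar, Psmb5, Psmb6, Psmb7, Irf1, Irf9, Psme1 and Psme2, up to 3 of the largest changes that passed per pathway list and comparison, genes behind any count of 5 or fewer, and genes among the closest to the members' mean. Genes named for a small count, and libraries singled out, were chosen after their values were seen. The members and lists were chosen with earlier results of these data known. GC adjustment took each library's trend on transcript GC (lowess, span 0.3, GENCODE vM21) off its values. Python 3.11.15 with pandas 2.3.3 and numpy 2.4.6 made the summaries.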

Additional observations from a re-analysis of the deposited data

Results flagged for a closer look

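Among 70 pairs of a member and a group of 4 to 9 libraries, 8 held a library far from the others of its group by Dixon's gap test, and chance puts about 1 in 20 groups past that limit. In cells from brain these were Tap2 in BMD MLCs replicate 3 (log2 CPM 4.215), Psmb9 in BMD MLCs replicate 1 (4.217) and Psmb8 in microglia replicate 8 (3.371), all lower than the rest. B2m in sgRNA 2 macrophages replicate 2 was low at 11.94. In the baricitinib experiment H2-D1 was low in NTC replicate 4 at 0.016 uM (10.54), Nlrc5 was at the lowest value in NTC replicate 3 at 0.016 uM (-2.781), Tapbp was high in NTC replicate 4 at 0.4 uM (6.578), and Tap1 was high in KO replicate 3 at 10 uM (3.227). BMD MLCs replicate 3, microglia replicate 8 and the KO libraries at 10 uM have a low GC index, and its part in these values was not tested.

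In 3 cases the effect of a contrast differed between groups, and each difference was itself tested as an interaction with limma. The step from in vitro macrophages to engrafted cells differed between ER-Hoxb8 and BMD cells for 5 members, with a positive interaction. Such an interaction was found in 2.18% of all genes, and the ER-Hoxb8 macrophages and MLCs are of different lines. The sgRNA 1 effect was larger in macrophages than progenitors for 8 members, and in 9.84% of all genes. The Adar1 KO effect had a negative interaction between 10 and 0 uM baricitinib for 6 members, and in 19.7% of all genes.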

How the results depend on the processing

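No call on a member turned its direction under any alternative. Of 1085 member values past the threshold, taken over the alternatives other than leaving out 1 library, 1044 kept their side and 41 did not, and of 1052 with 1 library left out 992 kept it and 60 did not. Of 1601 values not past it, 99 passed under such an alternative and 52 changed sign below the threshold, and of 1348 with 1 library left out 22 passed and 105 changed sign. Counts of members that moved by over 1.5 times, or from or to 0, follow. They are given here without the share of all genes that passed under each setting. A change across all genes therefore cannot be told apart from a change in the members. Without KO replicate 2 at 0.4 uM in the fit the number of members passed was 3 in Adar1 KO 0.016 uM over 0 uM (0 as reported), 8 in Adar1 KO over NTC at 10 uM (4 as reported), 1 in NTC 0.016 uM over 0 uM (0 as reported), 2 in NTC 0.4 uM over 0 uM (0 as reported) and 3 in NTC 10 uM over 0 uM (0 as reported). With only the groups compared in the fit the number of members passed was 1 in Adar1 KO 0.4 uM over 0 uM (3 as reported), 0 in Adar1 KO over NTC at 0.4 uM (3 as reported), 8 in Adar1 KO over NTC at 10 uM (4 as reported), 4 in BMD MLCs over BMD macrophages (0 as reported), 1 in ER-Hoxb8 progenitors over BM progenitors (2 as reported), 4 in Monocytes over BM progenitors (1 as reported), 1 in NTC 0.4 uM over 0 uM (0 as reported), 3 in NTC 10 uM over 0 uM (0 as reported) and 1 in sgRNA 1 over NTC progenitors (0 as reported). Without the libraries of low GC index the number of members passed was 3 in BMD MLCs over BMD macrophages (0 as reported) and 8 in Interaction: engraftment effect, ER-Hoxb8 minus BMD (5 as reported). With eBayes without trend the number of members passed was 1 in ER-Hoxb8 progenitors over BM progenitors (2 as reported) and 0 in Monocytes over BM progenitors (1 as reported). With a mean log2 CPM above 2 the number of members passed was 1 in ER-Hoxb8 progenitors over BM progenitors (2 as reported). With no filter on low values the number of members passed was 1 in ER-Hoxb8 progenitors over BM progenitors (2 as reported) and 0 in Monocytes over BM progenitors (1 as reported). With the replicate block the number of members passed was 3 in Monocytes over BM progenitors (1 as reported) and 1 in sgRNA 1 over NTC progenitors (0 as reported). With quantile normalization the number of members passed was 1 in NTC 10 uM over 0 uM (0 as reported) and 1 in sgRNA 1 over NTC progenitors (0 as reported). With values adjusted for GC content the number of members passed was 1 in NTC 10 uM over 0 uM (0 as reported). Of each 8 at 10 uM, 7 fell and Psmb8 rose. The replicate block is a fit with replicate number as a block. The GC settings and the fit without KO replicate 2 were chosen after seeing the data. Leaving out 1 library gave 3 to 9 in Adar1 KO 0.4 uM over 0 uM (3), 3 to 5 in Adar1 KO over NTC at 0 uM (6), 0 to 7 in Adar1 KO over NTC at 0.4 uM (3), 0 to 1 in ER-Hoxb8 day 4 over progenitors (0), 1 to 4 in ER-Hoxb8 progenitors over BM progenitors (2) and 0 to 0 in Monocytes over BM progenitors (1). Settings with fewer libraries have fewer samples by construction, and elsewhere the cause was not tested.

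Limits: the depth of each library is unknown here, so low values such as those of Nlrc5 carry an unknown counting error. FVB mice carry another class I haplotype than the C57BL/6 reference, and heavy chain genes are near-identical, so their reads can be misassigned. All 4 KO libraries at 10 uM have a low GC index, so dose and GC index cannot be told apart there. NTC macrophages have 2 libraries in the tests, and sgRNA 2 has no NTC in its set.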

Other observations

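NTC macrophages replicate 2, which was normalized apart, read 9.27 log2 CPM for H2-K1, 11.35 for B2m, 4.62 for Tap1, 6.73 for Psmb8 and 4.83 for Psmb9. The sgRNA 2 macrophages, set apart from any NTC library, ran for B2m 12.05, 11.94, 12.03, 12.04 and 12.06 and for Tapbp 8.24, 8.11, 8.14, 8.16 and 8.02. In the same libraries H2-D1 ran 12.64, 13.95, 13.12, 13.33 and 13.13.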
